A study of Mus musculus with 15 samples.

Results

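Antioxidant defense genes encode the enzymes that remove superoxide, hydrogen peroxide and related oxidants. The 10 genes described here were Sod1, Sod2, Sod3, Cat, Gpx1, Gpx3, Prdx1, Txn1, Nqo1 and Hmox1, which were chosen together for their function. Their probes were found through the RefSeq accession printed for each probe on the array. All 10 had a probe, with 13 probes in all, among 21154 genes and 55681 probes. Cat, Prdx1 and Hmox1 had 2 probes each, and the others had 1. The probe with the highest mean signal over all arrays stands for its gene in counts.

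Femoral midshaft RNA, labelled callus in all groups, came from male C57BL/6J mice, labelled as 9-week old, with 1 array per mouse. By the study's account that was about the age at surgery, shortly before launch. Tissue was taken some weeks later, when the mice were older. G-Sham held 4 unoperated mice on the ground, and FLT-Sham held 4 unoperated mice flown to the International Space Station. G-Surgery held 4 ground mice and FLT-Surgery held 3 flown mice that had received a segmental bone defect of the femur, filled with a scaffold and a collagen sponge soaked in saline. Ground mice lived in the same hardware, 5 days out of step with flight, and mice of all 4 groups were frozen as whole carcasses before dissection, and the RNA integrity was low by the study's own account. Mice keep the numbers of the labels, which name the mouse and do not pair groups. On every array the femur RNA carried the dye Cy5 and a reference RNA from 11 mouse cell lines carried Cy3, with no dye swap. A level is given as the log2 ratio of femur to reference signal, or as the Cy5 signal in arbitrary units.

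Superoxide dismutases turn superoxide into hydrogen peroxide, with Sod1 in the cytosol, Sod2 in mitochondria and Sod3 secreted into the extracellular matrix. Catalase in peroxisomes, glutathione peroxidases and peroxiredoxins then remove the peroxide, and thioredoxin passes on the reducing equivalents that peroxiredoxins need. Nqo1 reduces quinones and Hmox1 breaks down haem, and both are textbook targets of the transcription factor NRF2, which binds the antioxidant response element. In bone, oxidants are known for their part in osteoclast formation and in osteoblast survival.

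Because that element ties several of these genes together as background, the 250 bases before the start of each gene were searched for its core, TGACNNNGC, and for the AP-1 core, TGACTCA, on both strands. RefSeq promoter entries (GRCm38.p6) matched 8 of the 10 genes, and Sod3 and Hmox1 had no entry. The element core was found in 2 of the 8, Sod1 and Prdx1, and in 10.2% of all 32841 promoters of this length. The AP-1 core was found in Prdx1 alone of these 8, at 2 places, and in 4.46% of all promoters. One of those places overlaps the element core, since TGACTCAGC holds both. The sequences of both genes with a match are shown, with Nqo1 beside them as the NRF2 target with no match in this window. Capitals mark the matches, and a match in letters says nothing of binding. Prdx1 was read from chr4:116685349-116685598 on the plus strand, Sod1 from chr16:90220512-90220761 on the plus strand, and Nqo1 from chr8:107403206-107403455 on the minus strand, each 5′ to 3′ along the gene.
Prdx1: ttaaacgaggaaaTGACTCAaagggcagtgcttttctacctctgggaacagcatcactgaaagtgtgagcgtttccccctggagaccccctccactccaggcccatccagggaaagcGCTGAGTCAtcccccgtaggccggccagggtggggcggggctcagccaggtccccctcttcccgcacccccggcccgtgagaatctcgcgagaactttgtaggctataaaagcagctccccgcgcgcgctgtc
Sod1: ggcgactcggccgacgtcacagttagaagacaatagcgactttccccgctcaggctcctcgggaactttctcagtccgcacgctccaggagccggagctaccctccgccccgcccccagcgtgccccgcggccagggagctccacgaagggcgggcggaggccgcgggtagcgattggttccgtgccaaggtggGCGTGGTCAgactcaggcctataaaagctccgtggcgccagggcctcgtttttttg
Nqo1: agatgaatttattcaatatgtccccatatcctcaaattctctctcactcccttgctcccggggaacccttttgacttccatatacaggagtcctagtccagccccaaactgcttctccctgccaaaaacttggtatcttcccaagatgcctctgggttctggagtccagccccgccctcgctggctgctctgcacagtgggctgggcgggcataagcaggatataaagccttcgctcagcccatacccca

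Over the series, 12493 to 21461 probes per array had a Cy5 signal well above background, with 12493 to 14260 on the FLT-Surgery arrays. FLT-Sham mouse 8 stood apart from the other FLT-Sham arrays, with 14813 such probes against 19424 to 21461. The arrays lay on 3 slides, with G-Sham mouse 4 alone on the third. Osteoblast and osteocyte markers (8 genes) summed to 162200 to 547000 over all arrays, with 2 to 5 of them above background on each. Summed marker signals of muscle, blood and fat cells also moved with the groups. Skeletal muscle markers (8 genes) summed to 493600 to 5242000 in FLT-Sham, 380100 to 1878000 in G-Sham, 241700 to 1129000 in G-Surgery and 78110 to 1023000 in FLT-Surgery. Adipocyte markers summed to 8674 to 50720 in FLT-Sham, 289 to 9886 in G-Sham, 1722 to 9410 in G-Surgery and 147 to 7069 in FLT-Surgery. Lep, an adipocyte marker, was not well above background on any array. In bulk tissue, fewer cells of a type and less RNA per cell cannot be told apart.

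**Figure D1:**
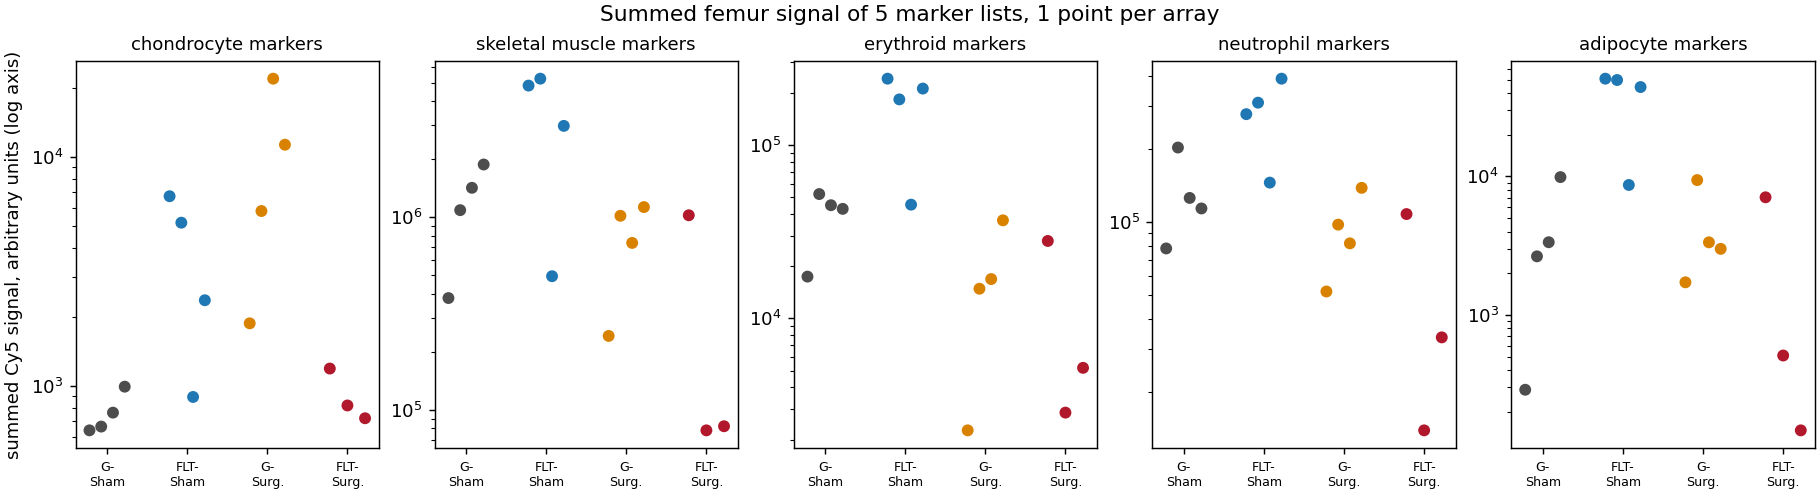
Summed Cy5 signal (arbitrary units, log axis) of 5 cell type marker lists in the 4 groups, with 1 point per array. Chondrocyte markers ranged from 1875 to 21900 on G-Surgery arrays, which overlapped with FLT-Sham (895 to 6722), and from 722 to 1190 on FLT-Surgery arrays.

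Each comparison was tested with limma over all probes with Cy5 above background on at least 3 of its arrays. The cut-off took a probe whose groups differed 2-fold or more, provided that its p before adjustment was 0.01 or lower. In FLT-Sham against G-Sham no member passed the cut-off, where 2% of 19739 probes did, and 2 of 10 reached an unadjusted p of 0.05, where 9.6% of all probes did. In FLT-Surgery against G-Surgery no member of 9 tested passed (3.14% of 16548 probes), and 2 reached an unadjusted p of 0.05 (16.4% of all). In G-Surgery against G-Sham 1 member of 9 passed (2.59% of 17675 probes), the same 1 that reached an unadjusted p of 0.05 (10.9% of all). In FLT-Surgery against FLT-Sham 1 member of 10 passed (6.64% of 19136 probes) and 3 reached an unadjusted p of 0.05 (24.3% of all). After Benjamini-Hochberg adjustment no member reached an adjusted p of 0.05 in these comparisons, where 0%, 0%, 0.0113% and 0.0941% of all probes did, in the same order.

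**Figure D2:**
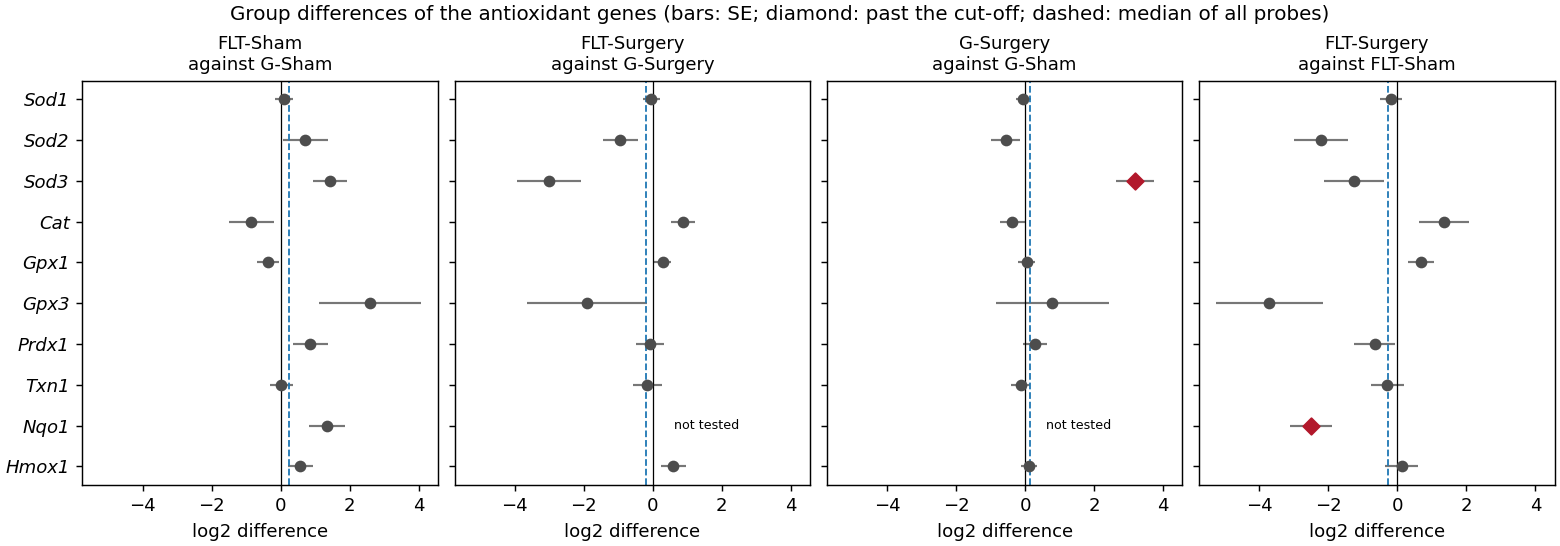
Log2 difference of each gene (brightest probe) in the 4 comparisons, with bars for the standard error, a diamond for a difference past the cut-off and a dashed line at the median of all probes tested. Sod3 in G-Surgery against G-Sham (3.18) and Nqo1 in FLT-Surgery against FLT-Sham passed the cut-off, and the point of Nqo1 is a fitted value, since no FLT-Surgery array was above background.

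Over all probes tested, the median log2 difference was 0.24 in FLT-Sham against G-Sham and -0.20 in FLT-Surgery against G-Surgery. It was 0.14 in G-Surgery against G-Sham and -0.28 in FLT-Surgery against FLT-Sham, and the differences of the members stand beside these shifts. In FLT-Sham against G-Sham 8 members were higher and 2 lower, with a median of 0.65, and 61.1% of all probes were higher. In FLT-Surgery against G-Surgery 3 were higher and 6 lower (median -0.086), and 37.9% of all probes were higher. In G-Surgery against G-Sham 5 were higher and 4 lower (median 0.045), with 59.9% of all probes higher. In FLT-Surgery against FLT-Sham 3 were higher and 7 lower (median -0.48), with 41.4% of all probes higher. These counts take in Gpx3, Nqo1 and others that passed the background filter through 1 group more than the other, so they describe the set and test nothing. Nqo1 was not above background on enough arrays to be tested in FLT-Surgery against G-Surgery or in G-Surgery against G-Sham.

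**Figure D3:**
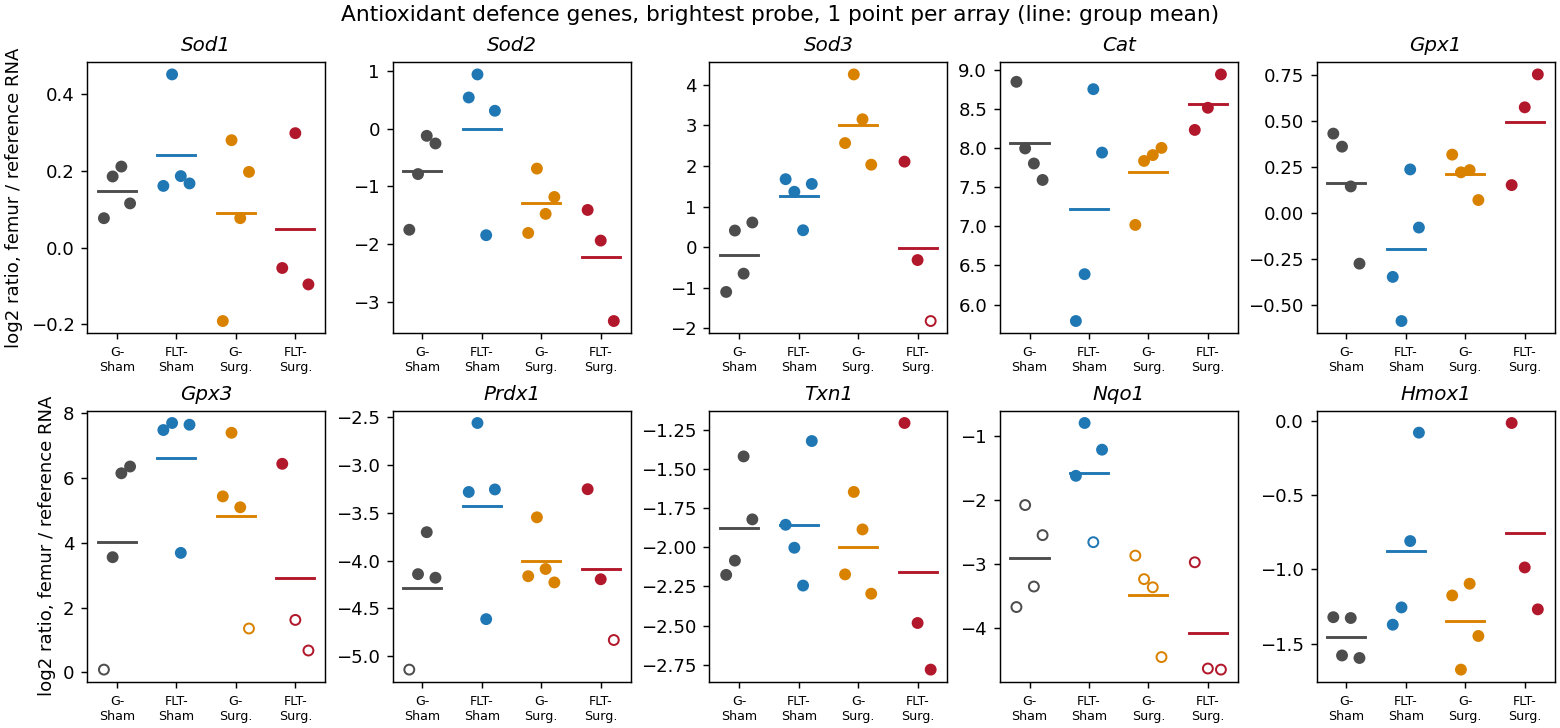
Log2 ratio of femur to reference RNA for the brightest probe of each gene, 1 point per array, with a line at the group mean and open points where Cy5 was not well above background. For Sod3 the 4 G-Surgery arrays (2.03 to 4.25) lay above every sham array, and Sod1 stayed between -0.19 and 0.45 on all 15.

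Sod3, the secreted superoxide dismutase of the extracellular matrix, was the member past the cut-off on the ground, and had its highest mean in G-Surgery. Its log2 ratio was -1.10, 0.41, -0.65 and 0.61 in G-Sham mice 1, 3, 4 and 5, and 1.67, 1.36, 0.42 and 1.56 in FLT-Sham mice 4, 6, 8 and 9. It was 2.56, 4.25, 3.15 and 2.03 in G-Surgery mice 1, 3, 4 and 5, and 2.11, -0.32 and -1.82 in FLT-Surgery mice 1, 3 and 5. Every G-Surgery array thus lay above every sham array, whereas the FLT-Surgery arrays spread from a value like those of G-Surgery to the lowest of all, and on mouse 5 the signal was not well above background. The group means ran from -0.19 ± 0.83 (SD, n = 4) in G-Sham and -0.01 ± 1.98 (n = 3) in FLT-Surgery, which overlap, through 1.25 ± 0.57 (n = 4) in FLT-Sham to 3.0 ± 0.95 (n = 4) in G-Surgery.

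Sod3 rose 9.09-fold after surgery on the ground, with a log2 difference of 3.18 (SE 0.56, limma, unadjusted p = 0.000375, adjusted p = 0.179). The 2 groups did not overlap. The difference was 2.17 on slide 1, where G-Sham had 1 array, and 4.50 on slide 2, where G-Surgery had 1. It stayed past the cut-off with each array left out in turn (2.77 to 3.51) and under every other scaling and filter tried, with 1.64 as the smallest value, after normexp and loess.

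In flight the surgery contrast of Sod3 did not pass. FLT-Surgery against FLT-Sham gave a log2 difference of -1.26 (SE 0.87, limma, unadjusted p = 0.186, adjusted p = 0.350). FLT-Surgery against G-Surgery gave -3.01, an 8.06-fold difference (SE 0.93, limma, unadjusted p = 0.0127, adjusted p = 0.280), which missed the cut-off because of its p. Without FLT-Surgery mouse 1 the difference was -4.07 and past the cut-off (limma, unadjusted p = 0.000683). With slide as a block it was -3.21 and past the cut-off as well (limma, unadjusted p = 0.000535, adjusted p = 0.0741). It was smaller after loess (-2.01, limma, unadjusted p = 0.0269), after normexp and loess (-1.46, limma, unadjusted p = 0.0114) and without FLT-Surgery mouse 5 (-2.11, limma, unadjusted p = 0.0429). Among unoperated mice, Sod3 was 2.71-fold higher in flight, with a log2 difference of 1.44 (SE 0.49, limma, unadjusted p = 0.0174, adjusted p = 0.497). FLT-Sham mouse 8 was the 1 flight array within the ground range, and without it the difference was 1.72 and past the cut-off (limma, unadjusted p = 0.00678). After loess it was 0.87 (limma, unadjusted p = 0.0606), and after normexp and loess 0.47 (limma, unadjusted p = 0.0269).

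The spaceflight difference of Sod3 had opposite signs with and without surgery, and the difference between both was tested over all 15 arrays. It came to -4.45 on the log2 scale (SE 1.08, limma, unadjusted p = 0.00104, adjusted p = 0.168). Of 21777 probes in this test, 5.33% passed the same cut-off, 19.5% reached an unadjusted p of 0.05 and 0% an adjusted p of 0.05. Sod3 was the 1 member of 10 past the cut-off. The value for Sod3 lay between -5.51 and -1.92 under the 22 alternatives that tested it and stayed past the cut-off in each of them. Where both channels had to be above background on every array, Sod3 was not tested, because FLT-Surgery mouse 5 fell short.

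Chondrocyte markers were among the lists that moved with Sod3 across the groups. Of 5 markers, 3 to 4 were above background on G-Surgery arrays, 2 to 3 on FLT-Sham arrays, 1 to 3 on G-Sham arrays and 1 to 2 on FLT-Surgery arrays. Col2a1, the main collagen of cartilage, was above background on 4 of 4 G-Surgery, 3 of 4 FLT-Sham, 0 of 4 G-Sham and 1 of 3 FLT-Surgery arrays, and Sox9 on none of the 15. The marker sums were 640 to 992 in G-Sham, 895 to 6722 in FLT-Sham, 1875 to 21900 in G-Surgery and 722 to 1190 in FLT-Surgery. Macrophage sums were 7523 to 10920 in G-Sham and 15490 to 22010 in G-Surgery. Osteoclast sums were 4573 to 17300 and 19490 to 62120, and smooth muscle sums 23750 to 34910 and 36040 to 77020 in the same order. The sums of the remaining lists overlapped between these groups. FLT-Surgery mouse 1, where Sod3 was high, had a chondrocyte sum of 1190 and an osteoclast sum of 56987. The part of any of these lists in the Sod3 result was not tested.

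**Figure D4:**
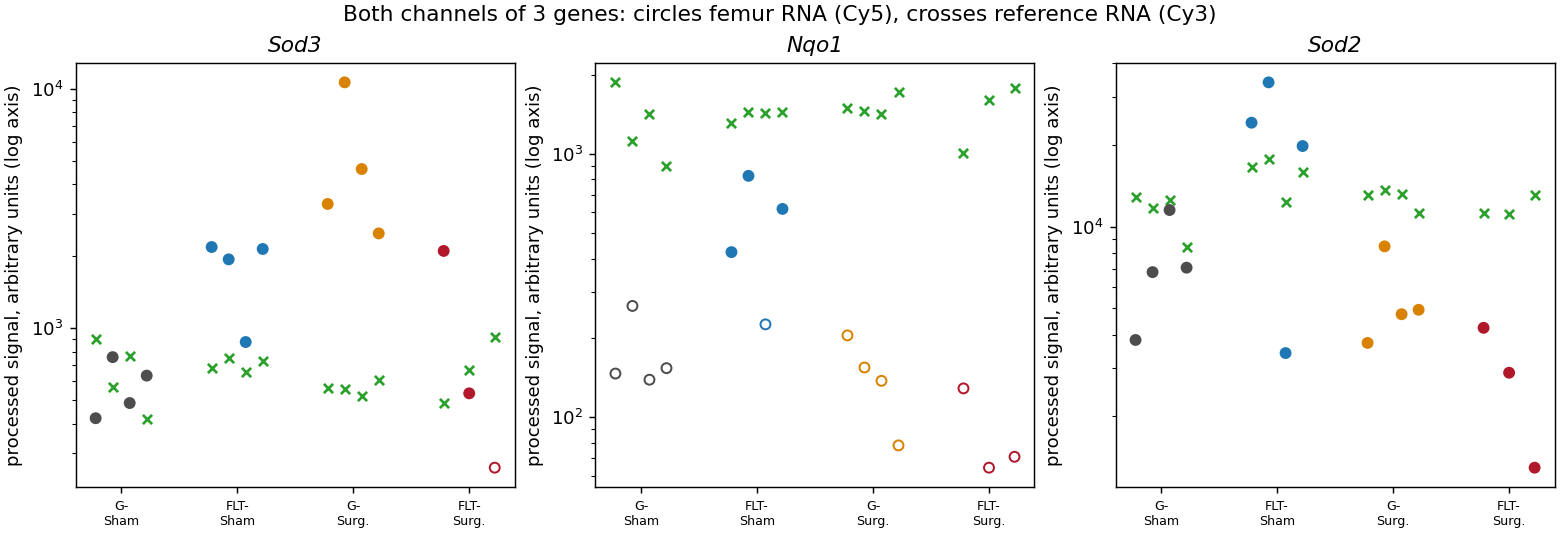
Processed signal (arbitrary units, log axis) of Sod3, Nqo1 and Sod2 on each array, with circles for femur RNA (Cy5), crosses for reference RNA (Cy3) and open circles where Cy5 was not well above background. The Cy5 signal of Sod3 reached 10684 in G-Surgery mouse 3 and 261 in FLT-Surgery mouse 5, and Nqo1 was above background in 3 FLT-Sham arrays only.

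Without the reference channel, the Cy5 signal of Sod3 was 421 to 758 in G-Sham, 876 to 2188 in FLT-Sham, 2495 to 10684 in G-Surgery and 261 to 2107 in FLT-Surgery, while the reference signal stayed between 416 and 923 on all arrays.

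Sod2, the mitochondrial dismutase, was lower after surgery in flight. Its log2 ratio was 0.54, 0.94, -1.85 and 0.31 in FLT-Sham mice 4, 6, 8 and 9, and -1.41, -1.94 and -3.34 in FLT-Surgery mice 1, 3 and 5. FLT-Sham mouse 8 lay among the surgery values, so the groups overlapped. The log2 difference was -2.22, or 4.65-fold (SE 0.77, limma, unadjusted p = 0.0214, adjusted p = 0.165), short of the cut-off. Without mouse 8 it was -2.83 and past the cut-off (limma, unadjusted p = 0.00116), and after normexp and loess it was -1.29 (limma, unadjusted p = 0.0297). Within slides it was -3.18 on slide 1 and -1.21 on slide 2. In G-Sham the ratios were -1.75, -0.79, -0.12 and -0.26, and in G-Surgery -1.81, -0.69, -1.48 and -1.18. The ground groups overlapped, and no other comparison of Sod2 had an unadjusted p under 0.05. The skeletal muscle sums given above moved with Sod2, being highest in FLT-Sham mice other than mouse 8 and lowest in FLT-Surgery mice 3 and 5, and their part in the result was not tested.

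Sod1, the cytosolic dismutase, varied least. Its log2 ratio was -0.19 to 0.45 over all 15 arrays, and its differences in the 4 comparisons lay between -0.19 and 0.09 with SEs of 0.22 to 0.32 (limma, smallest unadjusted p = 0.570). The group means of 0.05 to 0.24 were closer together than the arrays within G-Surgery.

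Cat, the catalase of peroxisomes, was bright on its main probe on all arrays, with a log2 ratio of 5.79 to 8.94 over the reference. In G-Sham the ratio was 8.85, 8.0, 7.80 and 7.59, and in FLT-Sham it was 5.79, 6.39, 8.75 and 7.94. In G-Surgery it was 7.02, 7.84, 7.91 and 8.0, and in FLT-Surgery 8.23, 8.52 and 8.94. All 3 FLT-Surgery arrays lay above all 4 G-Surgery arrays, and FLT-Sham held both the lowest values and some of the highest. FLT-Surgery exceeded G-Surgery by 0.87 on the log2 scale, or 1.83-fold (SE 0.34, limma, unadjusted p = 0.0354, adjusted p = 0.289), under the fold cut-off of 2. The direction held under every alternative, from 0.40 to 1.2. The remaining differences of Cat between groups ran from -0.84 to 1.35, with unadjusted p-values above 0.1. The test of the difference between both spaceflight effects gave 1.71 for Cat (SE 0.82, limma, unadjusted p = 0.0556, adjusted p = 0.264).

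The other Cat probe, which carries the same accession, was not well above background in Cy5 on any of the 15 arrays, although the reference channel was on all of them. Its Cy5 signal was 33.3 to 192 against 46887 to 260061 for the bright probe, and the ratios of both probes over the 15 arrays had a correlation of 0.043. What is said of Cat therefore rests on 1 of its 2 probes, and the place of each on the transcript was not given in the sources used here.

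Gpx1, the cytosolic glutathione peroxidase, ranged from -0.58 to 0.75 in log2 ratio and was well above background throughout. Its mean was -0.19 ± 0.35 in FLT-Sham, 0.17 ± 0.32 in G-Sham and 0.21 ± 0.10 in G-Surgery (SD, n = 4 each), and 0.49 ± 0.31 (SD, n = 3) in FLT-Surgery. Neighbours in this order overlapped, and the differences of -0.36 to 0.69 had unadjusted p-values of 0.100 or more (limma).

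Gpx3, the secreted glutathione peroxidase found in plasma, was the most variable gene. Its Cy5 signal was 15.8, 123, 889 and 748 in G-Sham mice 1, 3, 4 and 5, and 6557, 4960, 380 and 1764 in FLT-Sham mice 4, 6, 8 and 9. It was 664, 827, 269 and 53.1 in G-Surgery mice 1, 3, 4 and 5, and 640, 41.2 and 30.2 in FLT-Surgery mice 1, 3 and 5. The 3 highest signals were those of FLT-Sham mice 4, 6 and 9, and all groups overlapped. The signal was above background on 11 of 15 arrays, and the reference signal on 2 of 15, so the ratio was set against a reference near background. FLT-Surgery, with 1 of 3 arrays above background, differed from FLT-Sham by -3.72 on that log2 ratio (SE 1.55, limma, unadjusted p = 0.0441, adjusted p = 0.197). On slide 1 the difference was -6.34, but neither FLT-Surgery array there was above background, so its size is not a measured fall. On slide 2, where FLT-Surgery mouse 1 was the 1 surgery array, it was 0.095 and so of the opposite sign. Without that mouse it was -5.49 and past the cut-off (limma, unadjusted p = 0.00307), but no FLT-Surgery array left was above background. After normexp and loess the difference was -2.46 (limma, unadjusted p = 0.0398). Gpx3 met the background filter through the FLT-Sham arrays, where it was higher. The call and the p-values of this contrast therefore support no difference.

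Prdx1, a thiol peroxidase, was lower in femur than in the reference on both probes, with log2 ratios of -5.14 to -2.56 on the brighter probe and -2.86 to -0.13 on the other. On the brighter probe the mean was -3.43 ± 0.86 in FLT-Sham, -4.01 ± 0.31 in G-Surgery and -4.29 ± 0.60 in G-Sham (SD, n = 4 each), and -4.09 ± 0.79 (SD, n = 3) in FLT-Surgery. The groups overlapped, and no difference had an unadjusted p under 0.1 on either probe (limma). Both probes gave a higher mean in FLT-Sham than in G-Sham, by 0.86 (SE 0.51) and 0.76 (SE 0.50). Their ratios had a correlation of 0.229 over the 15 arrays, and on FLT-Sham mouse 8 the brighter probe was at the low end of its group (-4.61) and the dimmer one at the high end (-0.13).

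Txn1, the thioredoxin that serves the peroxiredoxins, had log2 ratios of -2.78 to -1.21. Its differences were between -0.30 and 0.02, with SEs of 0.27 to 0.48, in the 4 comparisons (limma, smallest unadjusted p = 0.551). FLT-Surgery held both the highest array, mouse 1, and the lowest, mouse 5.

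**Figure D5:**
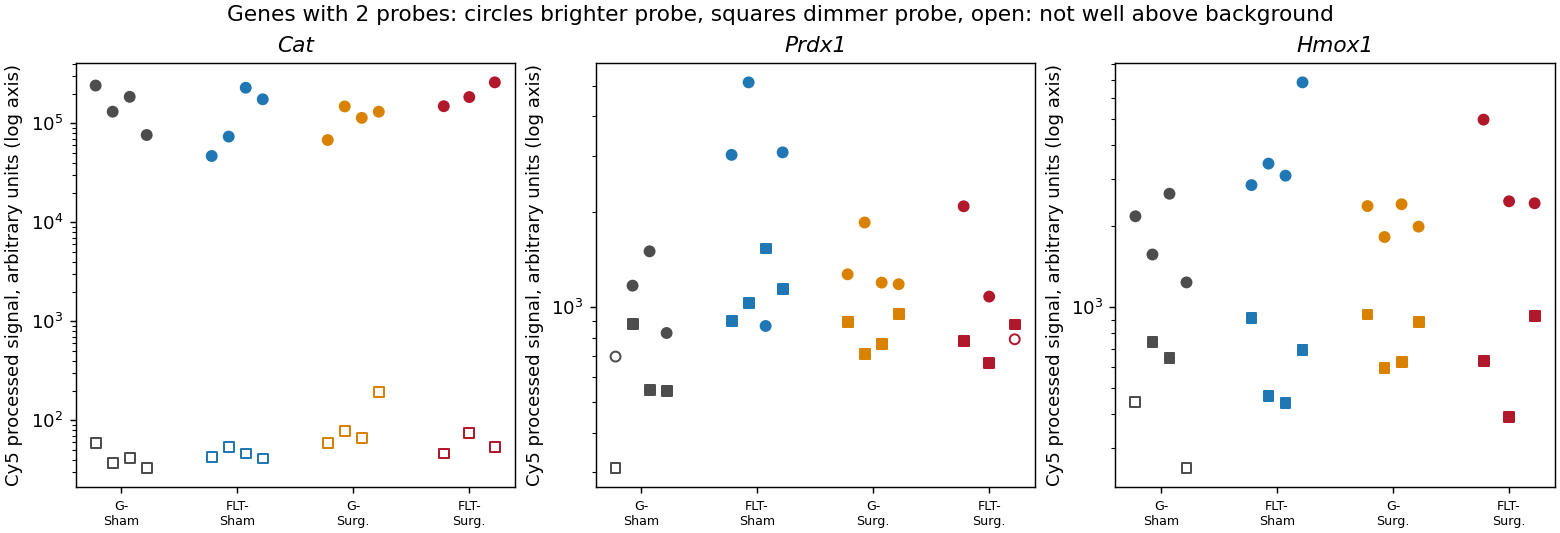
Cy5 signal (arbitrary units, log axis) of the genes with 2 probes, with circles for the brighter probe, squares for the dimmer probe and open symbols where the signal was not well above background. The dimmer Cat probe was below that level on all 15 arrays, and the Hmox1 and Prdx1 probes were closer to each other.

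Nqo1, the quinone reductase, was at the limit of detection in this tissue. Its Cy5 signal was 424, 826, 225 and 618 in FLT-Sham mice 4, 6, 8 and 9, and only that of mice 4, 6 and 9 was well above background. It was 147, 265, 139 and 154 in G-Sham mice 1, 3, 4 and 5, 78.2 to 205 in G-Surgery and 64.3 to 129 in FLT-Surgery, with none above background. The reference signal was above background on all 15 arrays, at 901 to 1870. Since a group without a signal gives only a bound, folds come from the normalized Cy5 channel. In it a dim array counts at no less than its lowest signal above background over all its probes. The folds are open to dye bias. By this rule FLT-Sham exceeded FLT-Surgery at least 3.16-fold (limma, adjusted p = 0.136). FLT-Sham exceeded G-Sham 1.95-fold (limma, adjusted p = 0.510). That is the fold as measured, since the G-Sham signals lay above the lowest signal that the rule uses. The rule takes that signal from the whole array and not from this probe, so neither fold is a firm bound. Nqo1 was the 1 call past the cut-off among the members in FLT-Surgery against FLT-Sham. Nqo1 entered both tests only through the 3 FLT-Sham arrays where it was above background, so it had to be higher there, and neither the call nor the p is support for a difference.

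The Nqo1 call depended on the setting. It was lost after loess (fitted log2 difference -1.22, limma, unadjusted p = 0.0208), with slide as a block (-2.17, limma, unadjusted p = 0.0139) and without FLT-Surgery mouse 3 or mouse 5 (-2.23 each). After normexp and loess the sign turned, to 0.13 (limma, unadjusted p = 0.297). Without FLT-Sham mouse 4, 6 or 9 the probe was above background on too few arrays to be tested. The sign against G-Sham turned as well after normexp and loess, to -0.027. The adipocyte and skeletal muscle sums given above also reached their highest values in FLT-Sham, as did the erythroid and neutrophil sums. The part of these lists in the Nqo1 result was not tested.

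Hmox1, the haem oxygenase, was above background on all arrays on its brighter probe, with log2 ratios of -1.67 to -0.01. The highest values were -0.01 in FLT-Surgery mouse 1 and -0.08 in FLT-Sham mouse 9, and the 4 G-Sham arrays lay between -1.60 and -1.32. FLT-Sham was 0.58 higher than G-Sham (SE 0.36) and FLT-Surgery 0.59 higher than G-Surgery (SE 0.36), with unadjusted p-values of 0.145 and 0.144 (limma). The other probe, above background on 13 arrays, gave 0.12 (SE 0.42) and -0.35 (SE 0.38) for the same contrasts, so the probes differed in sign for the second. Their ratios had a correlation of 0.064 over the 15 arrays.

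The wider pathway was followed with 68 further genes in 10 groups, of which all 68 had a probe. They were genes for glutathione synthesis and transfer, the other peroxiredoxins and thioredoxins, haem and iron handling, NRF2 and its regulators, NADPH supply, metallothioneins, sestrins, and the enzymes that make oxidants. In FLT-Sham against G-Sham 46 of 59 tested were higher and 13 lower (median 0.35), beside 61.1% of all probes higher, and 1 passed the cut-off, where 2% of all probes did. That was Ncf1, a subunit of the phagocyte NADPH oxidase, which was not well above background in G-Sham and at least 3.66-fold higher in FLT-Sham (limma, adjusted p = 0.428). Ncf1 entered the test only through FLT-Sham, so neither its call nor its p supports a difference. In FLT-Surgery against G-Surgery 11 of 52 were higher and 41 lower (median -0.39), and the 1 that passed (3.14% of all probes) was Sesn1, a stress-inducible sestrin, which fell by 1.16 on the log2 scale (SE 0.33, limma, adjusted p = 0.280). The medians lay on the same side as those of all probes in both comparisons.

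In G-Surgery against G-Sham 34 of 55 pathway genes were higher and 21 lower (median 0.16). The 1 gene past the cut-off (2.59% of all probes) was Gstm5, a glutathione transferase, which was above background on all 4 G-Sham arrays and none of G-Surgery, and at least 4.55-fold higher in G-Sham (limma, adjusted p = 0.124). In FLT-Surgery against FLT-Sham 10 of 58 were higher and 48 lower (median -0.58), and 4 passed, all lower. Of all probes 6.64% passed, 1190 of those 1271 lower, so the count is near that of all probes. Mgst1, a microsomal glutathione transferase, was not above background in FLT-Surgery and at least 3.04-fold higher in FLT-Sham (limma, adjusted p = 0.147). Ncf1, Gstm5 and Mgst1 each entered the test only through the group in which they were higher, so their calls are descriptions and support no difference. Their folds follow the rule given for Nqo1 and are no firm bounds either. Prdx3, the peroxiredoxin of mitochondria, fell by a fitted 3.27 on the log2 scale (SE 0.91, limma, adjusted p = 0.145). Me1, a malic enzyme that supplies NADPH, fell by 3.24 (SE 0.95, limma, adjusted p = 0.150). Both had all 4 FLT-Sham arrays but 1 of 3 FLT-Surgery arrays above background. Prdx3 and Me1 thus also met the background filter through the group in which they were higher, and their calls support no difference. Sesn1 fell by 1.63 (SE 0.46, limma, adjusted p = 0.145). All 9 thioredoxin and glutaredoxin genes and all 6 tested genes of the list of NRF2 and its regulators were lower in that contrast, with medians of -0.87 and -1.04 beside -0.28 for all probes, and none of them passed the cut-off. Nfe2l2, the gene of NRF2, is 1 of the 6 and was above background on no FLT-Surgery array. Of the 7 genes of that list, 4 to 7 were above background on FLT-Sham arrays and 2 to 4 on FLT-Surgery arrays. The background filter thus favored genes higher in FLT-Sham, and the count and median of that list test nothing. In the test of the difference between both spaceflight effects 13 of 59 were higher and 46 lower (median -0.78, against -0.36 for all probes). Of these, 2 passed the cut-off, where 5.33% of all probes did. Prdx2, a cytosolic peroxiredoxin abundant in red cells, gave -1.15 (SE 0.37, limma, adjusted p = 0.179), and Sesn1 gave -1.86 (SE 0.60, limma, adjusted p = 0.179). Erythroid markers were lower in FLT-Surgery (2862 to 27990 summed) than in FLT-Sham (45330 to 241600), and their part in the Prdx2 value was not tested.

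For each member, the 2 genes with the most similar log2 ratio over the 15 arrays were sought among 6373 other genes above background on at least 12 arrays. Arrays share group, slide and dye normalization, so these are descriptions. For Sod3 they were Slc39a1 (r = 0.960) and Znhit1 (r = 0.956). For Sod2 they were Ndufc2 (r = 0.989), a subunit of mitochondrial complex I, and Oxct1 (r = 0.983), a mitochondrial enzyme of ketone body use. For Cat they were Fbxo31 (r = 0.986) and Smo (r = 0.980), and for Nqo1, above background on only 3 of the 15 arrays, they were Abtb1 (r = 0.933) and Zbtb16 (r = 0.910). Gpx1 was closest to Rpl7a (r = 0.959), a ribosomal protein, and Cpne7 (r = 0.954), and Gpx3 to Sf3b6 (r = 0.955) and Meg3 (r = 0.948). Prdx1 was closest to Rps4x (r = 0.942) and Jak1 (r = 0.932), and Txn1 to Rplp1 (r = 0.896) and Stxbp3 (r = 0.873). The likeness was weakest for Sod1, with Mrps18b (r = 0.843) and Psmb6 (r = 0.812), and for Hmox1, with Krtap16-3 (r = 0.736) and Glrx2 (r = 0.696).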

How the data were processed

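Femoral RNA of 15 mice was measured on 2-color Agilent arrays. The authors deposited, per array, Feature Extraction output with the background-subtracted, dye-normalized intensity of both channels and their log10 ratio, and a series table with the same log ratio. Per the labels the software was Agilent Feature Extraction 12.0. The deposited log10 ratio is exactly 0 where neither channel was significant, so log2 ratios were computed from the deposited processed intensity values. These already carry an intensity-dependent dye normalization (Spearman correlation with intensity 0.894 to 0.992 per array), so no further loess was applied. Outlier spots were set to missing. The test was limma 3.58.1 (R 4.3.3), fitted to both groups of a comparison alone, for probes whose Cy5 signal was well above background on 3 or more of their arrays, and p-values were Benjamini-Hochberg adjusted over all probes tested. The interaction used all 15 arrays.

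The members, gene lists and marker lists were chosen with earlier results of these data known. A difference was named with its test where a member had an unadjusted p of at most 0.05 or passed the cut-off. Pathway genes were named where they passed it, at most 4 per list and comparison. Probe names were matched by accession to RefSeq (GRCm38.p6), with 28026 of 55681 probes named. The study's cut-off was kept, which asks for a 2-fold difference and a p before adjustment of 0.01 or lower. The fit was tested on simulated data. The files hold median spot signals, so the normexp alternative (offset 50) used those in place of means. Other alternatives were loess, centring, Cy5 alone, filters, slide and replicate blocks, array weights and leaving out each array. The number of arrays limits the precision. Other data of the study were not used here.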

Additional observations from a re-analysis of the deposited data

Results flagged for a closer look

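Among 39 groups of 4 arrays (13 probes in 3 groups), 3 held an array whose gap to its nearest neighbour took up more of the group's range than Dixon's critical value for 4 values allows, and chance marks about 1 group in 20. Sod1 was high in FLT-Sham mouse 6, at a log2 ratio of 0.452. Cat was low in G-Surgery mouse 1, at 7.02. Gpx3 was low in FLT-Sham mouse 8, at 3.69. The spaceflight difference was unlike in operated and unoperated mice for Sod3, by -4.45 on the log2 scale (limma, unadjusted p = 0.00104, adjusted p = 0.168). For Nqo1 the fitted value was -1.94 (limma, unadjusted p = 0.0274, adjusted p = 0.217), but Nqo1 was above background on 3 FLT-Sham arrays alone and entered the test through them, so this value supports no difference. Neither passed an adjusted p of 0.05.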

How the results depend on the processing

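Sod3 in G-Surgery against G-Sham, Sod3 in the difference of the spaceflight effects and Cat in FLT-Surgery against G-Surgery kept their direction and their side of the cut-off under all alternatives with a test. Signs turned for Nqo1 after normexp and loess (-0.027 in FLT-Sham against G-Sham, 0.13 in FLT-Surgery against FLT-Sham and 0.13 in the difference of the spaceflight effects) and for Gpx3 within slide 2 (0.095 in FLT-Surgery against FLT-Sham). The cause was not tested.

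The median over the members in FLT-Sham against G-Sham (0.65) was -0.024 after normexp and loess, 1.12 with Cy5 alone and 0.094 where Cy5 and Cy3 both had to be above background throughout. In FLT-Surgery against FLT-Sham (-0.48) it was 0.0011 after centring, 0.24 after normexp and loess, -0.94 with Cy5 alone, -0.035 with both channels above background, -0.95 with array weights, -1.0 within slide 1 and 0.26 within slide 2, and -0.93 to -0.21 with an array left out, the lowest without FLT-Surgery mouse 1. In the difference of the spaceflight effects (-0.56) it was -0.13 after loess, -0.017 after centring, 0.27 after normexp and loess, -1.19 with Cy5 alone and -0.060 with both channels above background, and -1.01 to -0.16 with an array left out. All other medians moved by less than the SD between arrays of a group (0.42).

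Members past the cut-off in FLT-Sham against G-Sham (0) were 1 with Cy5 alone, 1 with both channels above background, 2 with array weights, and 0 to 2 with an array left out (2 without FLT-Sham mouse 8). In FLT-Surgery against G-Surgery (0) they were 1 with Cy5 alone, slide as a block, all 15 arrays in the fit or array weights, and 0 to 1 with an array left out (1 without FLT-Surgery mouse 1). In FLT-Surgery against FLT-Sham (1) they were 0 after loess, after normexp and loess, with both channels above background or slide as a block, 2 with Cy5 alone or all 15 arrays, 5 with array weights, and 0 to 3 with an array left out (3 without FLT-Surgery mouse 1). In the difference of the spaceflight effects (1) they were 2 with Cy5 alone, 0 with both channels above background, 5 with array weights, and 1 to 4 with an array left out (4 without FLT-Sham mouse 8).

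Over all probes, 395, 519, 458, 1271 and 1160 passed the cut-off in the comparisons as ordered in the report, the difference of the spaceflight effects last. With other scalings, filters, blocks and weights the numbers were 33 to 3856, 211 to 1704, 179 to 725, 296 to 8508 and 322 to 5709, lowest after normexp and loess in each and highest with array weights in all but G-Surgery against G-Sham, where no filter gave the most among these. With an array left out they were 94 to 2072 (without FLT-Sham mouse 6 and mouse 8), 246 to 2051 (without G-Surgery mouse 3 and FLT-Surgery mouse 1), 240 to 746 (without G-Surgery mouse 1 and G-Sham mouse 1), 298 to 4912 (without FLT-Sham mouse 6 and mouse 8) and 544 to 3775 (without FLT-Surgery mouse 5 and FLT-Sham mouse 8). The share of these calls that were higher depended on scaling. It was 89.6% in FLT-Sham against G-Sham and 30.3% to 98.7% under loess, centring, normexp or Cy5 alone, 33.3% and 27.7% to 95.1% in FLT-Surgery against G-Surgery, 80.3% and 40.2% to 82.6% in G-Surgery against G-Sham, 6.37% and 2.27% to 52.2% in FLT-Surgery against FLT-Sham, and 6.64% and 0.748% to 74.9% in the difference of the spaceflight effects.

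Equal mouse numbers did not pair the arrays, since the deviations of same-numbered arrays from their group means correlated between -0.403 and 0.35 over 8024 probes. With the replicate block, Sod3 was 3.18 in G-Surgery against G-Sham and -2.96 in FLT-Surgery against G-Surgery, the member medians were 0.045 and -0.11, and 390 and 216 probes passed the cut-off. The slide block leaves G-Sham mouse 4 without weight, since it lay alone on its slide.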
